A study of Homo sapiens with 6 samples.

Results

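The integrated stress response (ISR) was examined through 10 genes in OE-19 cells, an adenocarcinoma line of the esophagogastric junction: *ATF4*, *ATF3*, *ATF5*, *DDIT3*, *DDIT4*, *TRIB3*, *CHAC1*, *SESN2*, *ASNS* and *CEBPB*. The genes were chosen by name as regulators and targets of this response, with their differences between IGF2BP3 KD and control cells already known from the same libraries. Those differences are therefore given as a description of the 10 genes, without a p-value, and nothing is supported with them. Each gene had 1 entry among the 60480 gene identifiers of the table, and all 10 passed the filter on low counts. RNA-seq compared 3 control libraries, from cells carrying a control shRNA, with 3 libraries from cells in which IGF2BP3, an RNA-binding reader of m6A, was knocked down by shRNA (IGF2BP3 KD). Both groups came from the same line and were grown in the same medium with serum and antibiotics. No stress agent or amino acid withdrawal is named in the labels. The control samples, but not the IGF2BP3 KD samples, are called Puro in their descriptions. What this name stands for is not given in the sources used here. Neither the labels nor the methods say whether the libraries of a group came from separate cultures, so the spread between them may be technical, and the hairpin in each IGF2BP3 KD library is not given in the sources used here.

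Cells under stress activate the ISR through kinases that phosphorylate the translation initiation factor eIF2. Phosphorylated eIF2 blocks its exchange factor eIF2B, which slows general translation while the mRNA of *ATF4* is translated more. ATF4, a basic leucine zipper (bZIP) transcription factor, then turns on genes for amino acid supply, redox balance and, with DDIT3 (CHOP), cell death. RNA-seq measures mRNA only, and neither eIF2 phosphorylation nor ATF4 protein was measured here.

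Total counts lay between 53453621 and 70026203 per library, and the lowest count of any of the 10 genes in any library was 333. Counting error was relatively largest in the genes with the lowest counts, *ATF3*, *ATF5* and *DDIT3*. Its part in their spread was not estimated. *IGF2BP3* itself was at 106 to 112 CPM (counts scaled to library size with TMM factors) in control libraries and at 12.6 to 14.4 CPM in IGF2BP3 KD libraries. Of 10 epithelial and columnar markers, *EPCAM*, *CDH1*, *KRT8*, *KRT18*, *KRT19*, *VIL1*, *CDX2*, *ERBB2* and *GATA6* were expressed in both groups, while *KRT20* averaged 0.187 CPM in control cells. Of 14 markers of blood, endothelial and stromal cells, 9 did not pass the filter on low counts, among them *PTPRC*, *CD3E*, *PECAM1* and *COL1A2*. The summed level of the other 5, nearly all of it *LYZ*, lay between 2526 and 2755 CPM in control and between 2572 and 2645 CPM in IGF2BP3 KD libraries. Of the 5, *DCN* and *PDGFRB* averaged 0.39 and 0.47 CPM in control cells and 0.46 and 0.38 CPM in IGF2BP3 KD cells. Among these 5, *CD68* (35.8 to 51.9 CPM) and *COL1A1* (21.7 to 30.8 CPM) were higher in IGF2BP3 KD cells, as were the epithelial *EPCAM*, *CDX2* and *ERBB2*. *KRT8* and *KRT18* were slightly lower. The part of these marker changes in the results was not tested.

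In IGF2BP3 KD cells, 8 of the 10 ISR genes were lower, 0 were higher and 2, *DDIT3* and *ATF5*, were not called. The count of 0 higher was the same at an unadjusted p under 0.05 and with DESeq2. In these bulk libraries, fewer cells expressing a gene and less RNA per cell cannot be told apart. A gene is called lower or higher here when its adjusted p is under 0.05 over the 19778 genes tested, with edgeR's quasi-likelihood test and Benjamini-Hochberg adjustment. Of all tested genes, 10.6% were called lower and 9.87% higher. In the same 8 genes all IGF2BP3 KD values lay below all control values, as they did in 17.8% of all tested genes. The median log2 fold change of IGF2BP3 KD over control was -0.31 over the 10 genes and 0.01 over all tested genes. Because the 10 genes were picked with this contrast known, these shares only describe them. The shares were not matched for level, and all tested genes include many of low level, in which a change is harder to call.

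**Figure D1:**
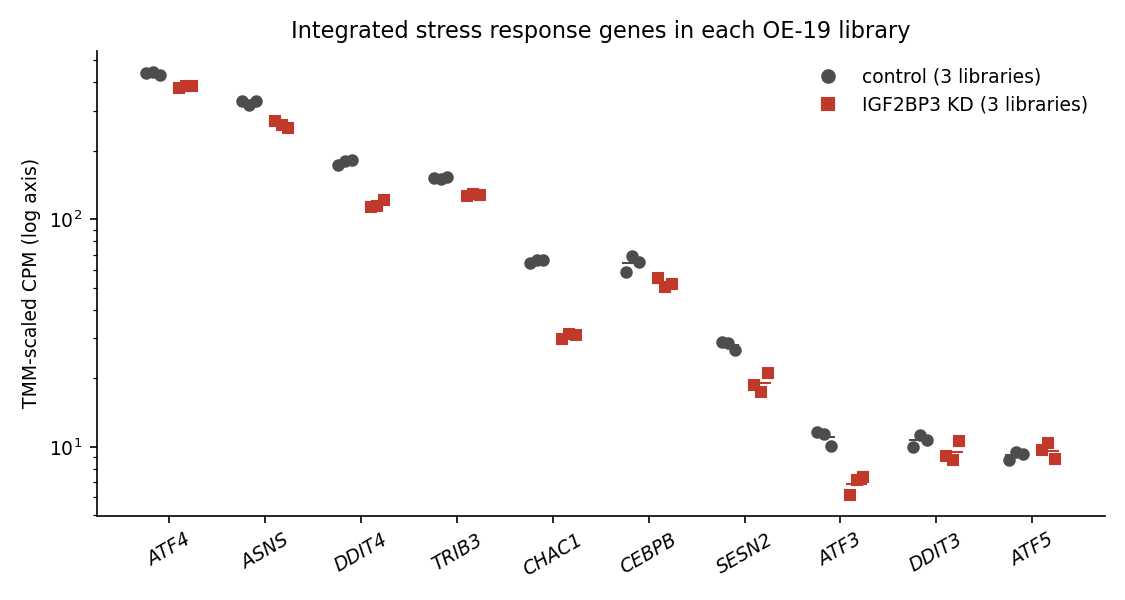
TMM-scaled CPM (log axis) of the 10 ISR genes in each of 3 control libraries (circles) and 3 IGF2BP3 KD libraries (squares), with a line at each group's mean. The groups are separate for 8 genes, most widely for *CHAC1*, and overlap for *DDIT3* and *ATF5*.

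Promoter windows from RefSeq (GRCh38.p14, 250 bases before to 50 bases after each annotated start) were searched on both strands for motifs of factors known from this response. All 10 genes matched by symbol, with 19 windows because some genes have several starts. TGATGNAA, the core of the C/EBP-ATF response element that ATF4 binds together with a C/EBP factor, was found in a window of *ASNS*, *CHAC1* and *ATF3*, that is in 3 of the 19 windows, and in 3.62% of all 35116 windows. CCAAT, the box bound by NF-Y, was found in 8 of the 19 windows, from 6 genes, and in 34.6% of all windows. CACGTG was found in 2 windows of *ATF4* and in 7.26% of all, and TGACGTCA in 0 of the 19 and in 1.85% of all. Windows of close starts overlap, so these are not counts of separate sites. The 2 windows of *ATF4* hold the same CACGTG. *CEBPB* and *DDIT3* each have 2 windows that hold the same CCAAT letters. A match is a run of letters and no evidence of binding. No match says only that these letters are not in these windows.

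The stretch up to the base before the start is shown for the 3 genes with a TGATGNAA match. It shows how far the match lies from the start. Capitals mark TGATGNAA or CCAAT on either strand. The stretches lie at chr7:97872409-97872623 (*ASNS*, minus strand), chr15:40953256-40953470 (*CHAC1*, plus strand) and chr1:212565192-212565406 (*ATF3*, plus strand, before the more upstream of its starts).

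ASNS: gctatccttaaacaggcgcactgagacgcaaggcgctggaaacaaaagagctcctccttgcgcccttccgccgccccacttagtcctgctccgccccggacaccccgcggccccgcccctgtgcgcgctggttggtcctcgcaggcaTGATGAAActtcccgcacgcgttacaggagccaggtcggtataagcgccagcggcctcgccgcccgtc

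CHAC1: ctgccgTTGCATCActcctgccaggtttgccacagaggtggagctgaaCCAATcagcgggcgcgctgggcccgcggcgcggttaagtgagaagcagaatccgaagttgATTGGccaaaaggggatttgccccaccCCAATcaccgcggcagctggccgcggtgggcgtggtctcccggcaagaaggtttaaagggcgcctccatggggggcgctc

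ATF3: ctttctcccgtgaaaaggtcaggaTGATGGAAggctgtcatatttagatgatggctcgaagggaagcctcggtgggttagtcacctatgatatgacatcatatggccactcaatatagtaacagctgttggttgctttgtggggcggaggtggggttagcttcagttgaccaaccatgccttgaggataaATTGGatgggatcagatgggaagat

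Counted from the RefSeq start, the first base of the match is at -68 in *ASNS* and at -191 in *ATF3*. In *CHAC1* it is at -209, and the match lies on the opposite strand. *CHAC1* also holds 3 CCAAT boxes in this stretch, *ATF3* holds 1 and *ASNS* holds 0. The gene positions given below are from GENCODE v44, in which these genes begin farther upstream than these RefSeq starts. The whole *CHAC1* stretch lies inside its gene span there, as do parts of the *ASNS* and *ATF3* stretches. The matches of *ASNS* and *CHAC1* are inside those spans, and that of *ATF3* is outside.

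Among the transcription factors, *ATF4* (ENSG00000128272, chromosome 22 of hg38, 39519695 to 39522683, plus strand), the effector at the centre of the response, was at 437, 444 and 430 CPM in control replicates 1, 2 and 3. It was at 377, 384 and 387 CPM in IGF2BP3 KD replicates 1, 2 and 3. The groups did not overlap, and the difference was small: a log2 fold change of -0.19 (standard error, SE, 0.03), or 12.4% lower. By size of the fall *ATF4* ranked 1599 among the 2088 genes called lower.

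*ATF3* (ENSG00000162772, chromosome 1, 212565334 to 212620777, plus strand), a bZIP factor induced by many stresses, was at 11.7, 11.4 and 10.0 CPM in control replicates. It was at 6.17, 7.15 and 7.38 CPM in IGF2BP3 KD replicates. All IGF2BP3 KD libraries lay below all control libraries, with a difference of -0.67 on the log2 scale (SE 0.11). *CEBPB* (ENSG00000172216, chromosome 20, 50190830 to 50192668, plus strand), whose product C/EBPβ can pair with ATF4 and with CHOP, was at 58.9, 69.1 and 64.6 CPM in control replicates. In IGF2BP3 KD replicates it was at 55.4, 50.2 and 51.8 CPM. The gap between the lowest control and the highest IGF2BP3 KD library was narrow, and the log2 fold change of -0.29 (SE 0.06) moved to -0.24 without control replicate 2.

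*DDIT3* (ENSG00000175197, chromosome 12, 57516588 to 57521737, minus strand) encodes CHOP, the factor that links a prolonged response to cell death. It was at 9.96, 11.3 and 10.8 CPM in control replicates and at 9.12, 8.71 and 10.6 CPM in IGF2BP3 KD replicates. The third IGF2BP3 KD library reached into the control range, and the log2 fold change of -0.17 (SE 0.11) was not called. Without IGF2BP3 KD replicate 3 the estimate was -0.26, and without IGF2BP3 KD replicate 2 it was -0.11, neither of them called. *ATF5* (ENSG00000169136, chromosome 19, 49928702 to 49933935, plus strand), a bZIP factor whose translation is controlled like that of *ATF4* and which is known from the mitochondrial stress response, was at 8.73, 9.53 and 9.27 CPM in control replicates. It was at 9.65, 10.4 and 8.84 CPM in IGF2BP3 KD replicates. The groups overlapped, with a difference of 0.07 on the log2 scale (SE 0.10). Without IGF2BP3 KD replicate 3 the estimate was 0.13, and without IGF2BP3 KD replicate 2 it was 0.01. The SE of both was about that of *ATF3* and several times that of *ATF4*, so a change of the size seen for *ATF4* would be hard to resolve in them.

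Among the targets, *CHAC1* (ENSG00000128965, chromosome 15, 40952962 to 40956512, plus strand) was lower by the most. CHAC1 is a γ-glutamylcyclotransferase that breaks down glutathione. Its gene was at 64.0, 65.9 and 66.4 CPM in control replicates and at 29.6, 31.4 and 30.9 CPM in IGF2BP3 KD replicates. The log2 fold change was -1.09 (SE 0.05), or 53.1% lower, and it ranked 64 by size of the fall among the genes called lower. Replicates agreed closely, with a coefficient of variation of 1.94% in control and 2.98% in IGF2BP3 KD cells.

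Both inhibitors of mTORC1 signalling on the list were lower by about the same amount. *DDIT4* (ENSG00000168209, chromosome 10, 72273919 to 72276036, plus strand), also named REDD1, acts through the TSC complex. It was at 173, 180 and 182 CPM in control replicates and at 114, 114 and 122 CPM in IGF2BP3 KD replicates, which is -0.61 on the log2 scale (SE 0.04). *SESN2* (ENSG00000130766, chromosome 1, 28259518 to 28282491, plus strand), a leucine sensor that acts through the GATOR complexes, was at 28.8, 28.5 and 26.5 CPM in control replicates. It was at 18.8, 17.5 and 21.0 CPM in IGF2BP3 KD replicates, which is -0.55 on the log2 scale (SE 0.08). The groups were separate for both genes, and *SESN2* varied more between IGF2BP3 KD libraries (9.35%) than *DDIT4* did (3.72%).

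*ASNS* (ENSG00000070669, chromosome 7, 97851677 to 97872542, minus strand), which makes asparagine, was at 331, 317 and 331 CPM in control replicates and at 270, 261 and 251 CPM in IGF2BP3 KD replicates. This was a log2 fold change of -0.32 (SE 0.03), or 20.2% lower. *TRIB3* (ENSG00000101255, chromosome 20, 362835 to 397559, plus strand), a pseudokinase that binds ATF4 and CHOP and holds back their activity, was at 152, 151 and 153 CPM in control replicates. It was at 127, 129 and 128 CPM in IGF2BP3 KD replicates. Its log2 fold change was -0.25 (SE 0.03), and its coefficient of variation, 0.580% in control and 0.767% in IGF2BP3 KD cells, was the smallest of the 10 genes.

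**Figure D2:**
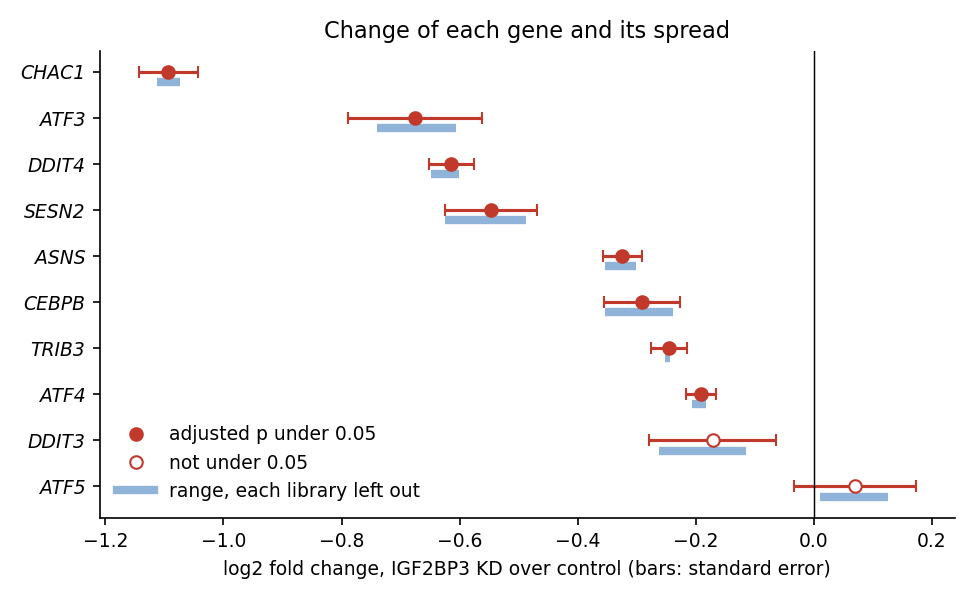
Log2 fold change of IGF2BP3 KD over control for the 10 ISR genes (points) with its standard error (bars), and below each point the range of the estimate with each of the 6 libraries left out in turn (thick lines). *CHAC1* is farthest from 0 at -1.09, and the estimates of *DDIT3* and *ATF5* (open points) are not called.

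Within groups the libraries differed little. In control replicates 1, 2 and 3, the number of genes above the mean of the control libraries was 5, 8 and 7. In IGF2BP3 KD replicates 1, 2 and 3, it was 3, 6 and 7. Deviations from a group's mean lay between -0.16 and 0.17 on the log2 scale, and their median in a library was between -0.02 and 0.03. With each library left out in turn, 8 of the 10 genes were still called lower in every one of the 6 fits. These fits share most of their libraries, and *CEBPB* came closest to the threshold among the 8.

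The levels of the 10 genes can be compared with each other only per length. In control cells, *ATF4* was highest at 167 ± 2.78 CPM per kilobase of exon (SD, n = 3), followed by *DDIT4* at 84.3 ± 2.39, *ASNS* at 66.6 ± 1.70, *TRIB3* at 46.2 ± 0.268, *CEBPB* at 34.9 ± 2.79 and *CHAC1* at 31.9 ± 0.619. *DDIT3* at 8.17 ± 0.521, *SESN2* at 8.06 ± 0.354, *ATF5* at 3.17 ± 0.141 and *ATF3* at 2.76 ± 0.215 followed, each in CPM per kilobase of exon. The control values of *CEBPB* and *CHAC1* overlapped, as did those of *DDIT3* and *SESN2*, so their order is not resolved. The order of the means was the same in IGF2BP3 KD cells. In those, *CHAC1*, at 14.5 to 15.3 CPM per kilobase, lay well below *CEBPB* at 28.5 ± 1.47, and the values of *DDIT4* and *ASNS* overlapped. Exon length here is the union of all annotated exons. With the length of the longest transcript, *ASNS* was at 137 and *ATF3* at 5.24 CPM per kilobase in control cells, and *ASNS* then ranked above *DDIT4*, *CHAC1* above *CEBPB* and *ATF3* above *ATF5*.

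**Figure D3:**
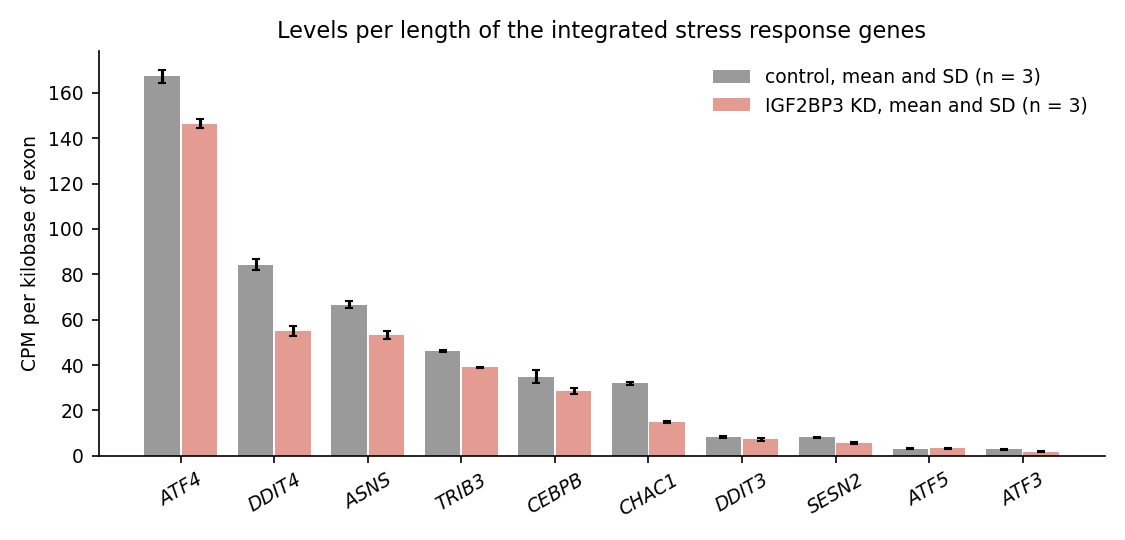
Mean level per length (CPM per kilobase of exon, linear axis from 0) of the 10 ISR genes in control and IGF2BP3 KD cells, with the SD over 3 libraries. *ATF4* is highest in both groups, at 167 and 146, and the order of the means is the same in both.

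Overlapping genes limit how exactly 4 of the 10 genes can be counted, since the annotation release and the strand setting of the counting are not given in the sources used here. The library kit was directional, so the reads carry their strand, and opposite-strand overlaps matter only if the counting ignored it. *DDIT3* shares 355 exonic bases, 27.2% of its exon length, with *MARS1* on the opposite strand, and *MARS1* had 8972 to 15139 counts per library and was lower in IGF2BP3 KD cells at -0.39 on the log2 scale. *ATF5* shares 565 exonic bases (19.5%) with *NUP62* on the opposite strand, which had 6216 to 9111 counts per library. *ASNS* shares 49.3% of its exon length with the lncRNA ENSG00000284707 on its own strand, which had 2015 to 3525 counts and a log2 fold change of -0.17 (SE 0.09). *CEBPB* shares 231 bases (12.6%) with the antisense gene *CEBPB-AS1*, which had at most 96 counts. The other 6 genes share no exonic base with another gene of GENCODE v44. The part that shared reads play in the values of these 4 genes was not tested.

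Other genes of the ISR, and of pathways tied to it such as the unfolded protein response and mTORC1 control, were taken from lists compiled by hand from their known functions, with earlier results of these data known. Of their 156 tested genes, each counted once, 59 (37.8%) were called lower and 21 (13.5%) higher in IGF2BP3 KD cells, against 10.6% and 9.87% of all tested genes. Their median log2 fold change was -0.07. The shares were not matched for level. All tested genes include many of low level, in which a change is harder to call: outside the 10 genes, 9849 averaged 10 CPM or more. Whether the listed genes differ in these shares from genes of like level was not tested. Genes named from these lists, and from the p53 targets given below, were mostly picked by their change in these data. Their adjusted p-values therefore only describe them.

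Of the 4 eIF2 kinases, 2 were higher and 0 were lower, also at an unadjusted p under 0.05 and with DESeq2. *EIF2AK3* (PERK), which responds to stress in the endoplasmic reticulum, was at 29.3, 32.3 and 32.0 CPM in control replicates and at 42.6, 42.5 and 40.7 CPM in IGF2BP3 KD replicates. The groups were separate (log2 fold change 0.43, SE 0.06, edgeR adjusted p = 3.9e-04). *EIF2AK2* (PKR), the sensor of double-stranded RNA, was at 49.2 to 50.9 CPM in control and 58.8 to 61.4 CPM in IGF2BP3 KD libraries, which is 0.27 on the log2 scale (SE 0.05). *EIF2AK1* (HRI), known for heme and mitochondrial stress, and *EIF2AK4* (GCN2), the sensor of uncharged tRNA, were not called, at 0.02 (SE 0.03) and -0.07 (SE 0.05). Of 7 genes that feed into these kinases, *PRKRA* and *IMPACT*, an inhibitor of GCN2, were higher at 0.26 and 0.17, and *GCN1*, which activates GCN2, was lower at -0.16. The chaperone genes *HSPA5* and *DNAJC3*, which restrain PERK and PKR, were not called.

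Of 13 genes for eIF2, eIF2B and the eIF2 phosphatase, 6 were lower and 0 were higher (2 at an unadjusted p under 0.05, 1 with DESeq2). *EIF2S1*, which encodes the subunit that the kinases phosphorylate, fell from 118 ± 2.85 to 87.3 ± 1.44 CPM (log2 fold change -0.44, SE 0.04, edgeR adjusted p = 1.1e-05). The other eIF2 subunits *EIF2S2* and *EIF2S3* were lower at -0.23 and -0.22. *PPP1R15A* (GADD34), the stress-induced subunit that directs the phosphatase to eIF2 and is itself a target of the response, was at 76.3, 74.2 and 75.3 CPM in control replicates. It was at 66.2, 67.4 and 59.4 CPM in IGF2BP3 KD replicates, which is -0.23 on the log2 scale (SE 0.05, edgeR adjusted p = 0.0105).

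The partners of ATF4 and related bZIP factors went both ways, with 7 of 21 lower and 4 higher. *JDP2* was lower by the most at -0.68 (SE 0.07) and *JUN* followed at -0.44, while *CEBPD* and *CEBPA* were higher at 0.40 and 0.25. *CEBPG*, a partner of ATF4, was not called at -0.05. Of 4 genes that mark ATF4 protein for decay, *FBXW11* was lower at -0.40 and the prolyl hydroxylase gene *EGLN3* was higher at 0.38.

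Of 6 tested paralogs of the 10 genes, 0 were lower, also at an unadjusted p under 0.05 and with DESeq2, and 1 was higher (2 with DESeq2). *TRIB2* rose from 12.3 ± 0.845 to 16.8 ± 1.49 CPM (SD, n = 3), which is 0.45 on the log2 scale (SE 0.09), while *TRIB3* was lower. *SESN1* was at 0.13 and *SESN3* at 0.48 (SE 0.16, edgeR adjusted p = 0.064), neither of them called. *CHAC2* and *ASNSD1* were at 0.10 and 0.01, and *TRIB1* at -0.04. The difference between each gene and its paralogs was not tested.

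Among the targets of ATF4 outside the 10 genes, the groups for amino acid uptake and tRNA charging had the largest shares of lower genes. Of 12 aminoacyl-tRNA synthetases, which load amino acids onto tRNA, 10 (83.3%) were lower, and 0 were higher by edgeR, by DESeq2 or at an unadjusted p under 0.05. Their median was -0.31 on the log2 scale. *GARS1* was at 316, 305 and 303 CPM in control replicates and at 200, 202 and 196 CPM in IGF2BP3 KD replicates, with no overlap and a log2 fold change of -0.63 (SE 0.03, edgeR adjusted p = 1.6e-07). *YARS1* and *CARS1* were lower at -0.44 and -0.41, and *SARS1* and *WARS1* were not called.

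Of 8 tested amino acid transporters, 6 (75.0%) were lower, and 0 were higher by edgeR, by DESeq2 or at an unadjusted p under 0.05. *SLC7A5* and *SLC3A2* encode both chains of the LAT1 transporter of large neutral amino acids. *SLC7A5* was at 421, 457 and 453 CPM in control replicates and at 283, 283 and 286 CPM in IGF2BP3 KD replicates. The groups were far apart (log2 fold change -0.64, SE 0.03, edgeR adjusted p = 3.6e-07). *SLC3A2* was at -0.48 (SE 0.04), *SLC1A4* at -0.46, and *SLC7A11*, the cystine carrier, at -0.42. *SLC38A2*, another known target, is listed at 0 counts in all 6 libraries and was not tested for a difference. Whether this 0 comes from the cells or from the counting cannot be told from the table, and it is not read as absence of expression.

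The enzymes of amino acid synthesis and one-carbon metabolism were mixed, with 5 of 14 lower and 2 higher. *MTHFD1L* and *MTHFD2*, of mitochondrial folate metabolism, were lower at -0.50 and -0.31. *PSAT1*, of serine synthesis, was higher at 0.24, and *PHGDH*, which starts that pathway, was not called at -0.04. *CTH*, which makes cysteine, was at 4.04, 3.85 and 3.81 CPM in control replicates and at 6.80, 8.15 and 5.51 CPM in IGF2BP3 KD replicates. It was higher by 0.81 on the log2 scale (SE 0.16, edgeR adjusted p = 0.0043).

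Of 21 tested targets of ATF4 and CHOP in stress and death, 10 were lower and 1 was higher. *VLDLR*, a lipoprotein receptor, was at 37.9, 34.5 and 35.2 CPM in control replicates and at 16.3, 17.7 and 19.0 CPM in IGF2BP3 KD replicates, which is -1.02 on the log2 scale (SE 0.07, edgeR adjusted p = 3.2e-06). *GDF15*, a secreted stress factor, was lower at -0.62 (SE 0.06) and *STC2* at -0.49. Among the genes of cell death, the death receptor *TNFRSF10B* was lower at -0.29, while *BBC3*, *PMAIP1* and *BCL2L11* were not called at -0.10, -0.15 and -0.07. The gene called higher, *NUPR1*, averaged under 1 CPM in both groups, and with DESeq2 0 genes of this list were higher.

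The other arms of the unfolded protein response, which run through IRE1 and ATF6 and share the endoplasmic reticulum with PERK, went both ways, with 6 of 20 genes lower, 4 higher and a median of 0.02 on the log2 scale. *XBP1*, the factor that IRE1 activates, was lower at -0.32 (SE 0.03), and so was *DNAJB9* at -0.35. *SEL1L*, of the degradation machinery, was higher at 0.46 (SE 0.04), as were the sensors *ERN1* (IRE1) and *ATF6* at 0.23 and 0.20. The chaperone genes *HSPA5* and *HSP90B1* were not called at 0.05 and 0.01. Of 10 mitochondrial chaperones and proteases, 3 were lower and 1 was higher, with *HSPA9* at -0.30 and *HTRA2* at 0.31.

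**Figure D4:**
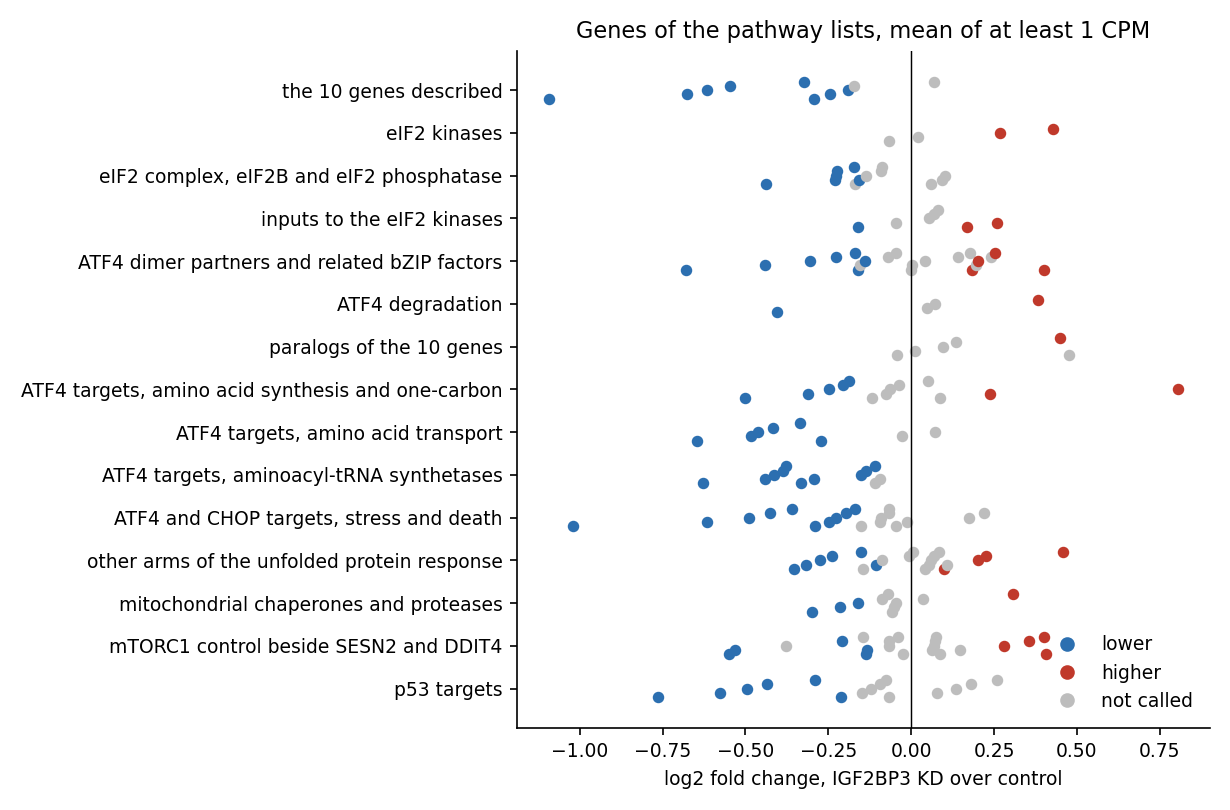
Log2 fold change of IGF2BP3 KD over control for each gene averaging 1 CPM or more in the 10 genes described, the other ISR lists and the p53 targets (points, colored by call). The synthetases and amino acid transporters lie mostly below 0, and the eIF2 kinases include 2 genes called higher.

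By Pearson's r of log2 CPM over the 6 libraries, among 9849 other genes that averaged 10 CPM or more, the pattern most like *ATF4* was in *SAE1* (r = 0.999), followed by *GCN1* (r = 0.998). For *CHAC1* the closest were *STK39* and *UHRF1BP1*, for *DDIT4* *PACSIN2* and *CABIN1*, for *TRIB3* *RHOA* and *VCL*, and for *ASNS* *DBT* and *POLR1F*. For *SESN2* they were *TARS2* and *GTSE1*, for *ATF3* *DENND6A* and *SPG21*, and for *CEBPB* *AP1M2* and *BRPF1*. For *DDIT3* and *ATF5*, whose groups overlap, they were *SLC2A8* and *TMEM63A*, and *RPL23AP42* and *PPM1H*. The libraries fall into 2 groups, so an r over them rests mostly on the difference between the groups: 763 genes exceeded 0.95 with *ATF4* and 939 with *CHAC1*, against 29 with *DDIT3* and 9 with *ATF5*.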

How the data were processed

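OE-19 RNA-seq libraries, 3 control and 3 IGF2BP3 KD, were analyzed from the table of counts that the authors deposited. Per the methods and the submitters' processing notes, clean reads (fastp) were aligned to hg38 with hisat2 and counted per gene with featureCounts, without normalization. Tool versions, annotation release and strand setting are not given in the sources used here. Columns were assigned to libraries by name. The control columns are named Puro, which matches the description of the control samples, whose titles read shControl. Repeated entries (132, of 44 identifiers) were left out.

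Counts were scaled with TMM, filtered with filterByExpr (minimum count 10, minimum total 15) and tested with edgeR 4.0.16 (glmQLFit, glmQLFTest) in R 4.3.3, with Benjamini-Hochberg adjustment over 19778 genes. The script was tested on simulated data. Standard errors are the log2 fold change divided by the square root of F. With 3 libraries per group, an exact permutation test of 1 gene cannot give a p below 0.1. Gene positions, lengths and overlaps come from GENCODE v44, and promoters with their starts from RefSeq.

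The 10 genes, the lists and the alternatives were chosen with earlier results of these data known. Named genes are the 10, *IGF2BP3* and, for each of these with an overlap, the gene sharing the most exonic bases with it. Also named are up to 3 called genes of largest change per list with a mean of at least 1 CPM. The eIF2 kinases, *PPP1R15A* and the 2 most similar genes for each of the 10 are named too. Further genes were named after their values were seen.

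Alternatives were DESeq2 1.42.0, RLE scaling, no filter, a filter of 10 counts per library, the replicate block, the trend on GC content removed (lowess span 0.3), both together, each library left out, an adjusted p under 0.01, and the longest transcript as length.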

Additional observations from a re-analysis of the deposited data

How the results depend on the processing

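The count of 8 lower and 0 higher genes among the 10 ISR genes was unchanged under all 14 alternatives to the calls, and each log2 fold change kept its direction and its side of the threshold under those that refit it. The estimate of *CHAC1* ranged from -1.14 to -1.07, that of *ATF4* from -0.22 to -0.18 and that of *ATF5* from 0.01 to 0.13. With the replicate block, 59 genes of the other lists were lower and 21 higher. No effect shared by libraries of the same replicate number was seen (correlations of deviations from group means: -0.02, -0.05 and -0.01). Whether such libraries were prepared together is not given in the sources used here. The block changed no call among the 10 genes. The count of genes of the other lists called higher was 11 at an adjusted p under 0.01, and between 15 and 23 with 1 library left out. The count called lower lay between 47 and 62 over all alternatives. Levels per length rest on the choice of exon length, as given for *ASNS* and *ATF3*. A change as small as that of *ATF4* would be hard to resolve in *DDIT3* or *ATF5*, whose standard errors are larger.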

Other observations

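Several of the 10 ISR genes are also known to respond to p53. Of 16 tested p53 targets, 6 were lower in IGF2BP3 KD cells, and 0 were higher (2 at an unadjusted p under 0.05, 0 with DESeq2). Their median was -0.11 on the log2 scale. *ZMAT3* fell from 30.3 ± 1.28 to 17.9 ± 0.804 CPM (SD, n = 3), which is -0.76 on the log2 scale (SE 0.07, edgeR adjusted p = 1.3e-05), and *TIGAR* and *BTG2* were lower at -0.58 and -0.49. *CDKN1A* and *MDM2*, the best known targets, were not called at 0.08 and -0.07.

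Genes that control mTORC1 beside *SESN2* and *DDIT4* went both ways, with 5 of 21 lower, 4 higher and a median of -0.02 on the log2 scale. *RHEB*, the GTPase that activates mTORC1 and that the TSC complex restrains, was at 104, 107 and 93.1 CPM in control replicates and at 72.6, 67.1 and 70.4 CPM in IGF2BP3 KD replicates (log2 fold change -0.53, SE 0.06, edgeR adjusted p = 5.3e-05). *BMT2* (SAMTOR), a sensor of S-adenosylmethionine, was lower at -0.55. The Rag GTPase genes *RRAGA* and *RRAGC*, through which amino acids act on mTORC1, were higher at 0.40 and 0.36, and *TSC1* and *TSC2* were not called.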
